A study of Homo sapiens with 12 samples.

Results

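Gluconeogenesis and glucose sensing were examined through 10 genes, PCK1, PCK2, G6PC, FBP1, PC, TXNIP, ARRDC3, ARRDC4, MLXIPL and SLC2A2, taken as every gene probe that carries one of these names in the array design. They have 17 of the 41000 gene probes. The cells were HuH-7, a human hepatocellular carcinoma line that carries a mutant p53, and all groups are cultures of this single line. They received 28 µM SLMP53-2, 42 µM SLMP53-2 or the solvent DMSO alone for 24 h. SLMP53-2 is a small molecule made to give mutant p53 back its normal activity, and the doses are 2 and 3 times the IC50, the dose that inhibits growth by 50%. Each of the 3 groups has 4 arrays, which the submitters call biological replicates, so that there are 12 in all. One label field gives the higher dose as 48 µM and the sample titles give 42 µM, and 42 µM is used here.

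Gluconeogenesis makes glucose from lactate, amino acids and glycerol, and in humans it runs mainly in the liver and the kidney. Pyruvate carboxylase (PC) forms oxaloacetate, the phosphoenolpyruvate carboxykinases of the cytosol (PCK1) and of the mitochondrion (PCK2) turn it into phosphoenolpyruvate, fructose-1,6-bisphosphatase (FBP1) works further up the route, and glucose-6-phosphatase (G6PC) releases free glucose, which crosses the hepatocyte membrane through GLUT2 (SLC2A2). Glucose is sensed by ChREBP, the transcription factor encoded by MLXIPL, and by its relative MondoA. TXNIP, an arrestin-like protein that binds thioredoxin and lowers glucose uptake, and its relative ARRDC4 are well-known targets of these factors, while ARRDC3 is another arrestin of the same family.

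The 12 arrays lie on 5 slides, and 65.0% to 85.0% of their gene spots were well above background. Array 28 µM replicate 4 lay close to a DMSO array. Of the 66 pairs of arrays it formed the closest, with DMSO replicate 3 of the same slide (median absolute log2 difference 0.121). Within its group it was 0.203 from replicate 3 and 0.238 from replicate 2. Replicate 1 of 28 µM lay farther from the others, by 0.283 to 0.360. Results that rest on 28 µM replicate 4 are given with and without it. The choice was made with its values seen, so p-values without it are a description. Whether 28 µM replicate 4 was treated as labelled was not tested. Of the 10 hepatocyte markers, 9 were above background on all 12 arrays, and the summed level of these 9 was 17.3 to 17.5 on the log2 scale in every group. Markers of fibroblasts, endothelial cells and leukocytes summed to between 9.57 and 9.95, and 4 of these 10 were above background on all 12 arrays. Of the rest, COL1A1, DCN and PECAM1 were so on 11 arrays, CDH5 on 10, MS4A1 on 7 and PTPRC on 2. In bulk RNA, fewer cells of a type and less RNA per cell cannot be told apart.

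Promoter sequences are shown for the genes whose probes differed most, PCK2, TXNIP and MLXIPL, and for ARRDC4 as a relative of TXNIP. They come from RefSeq for GRCh38.p14 and end at the base before the annotated transcript start. The 250 bases run 5′ to 3′ on the strand of the gene, at chr14:24094061-24094310 (plus strand) for PCK2, chr1:145996580-145996829 (minus) for TXNIP, chr7:73624523-73624772 (minus) for MLXIPL and chr15:97960453-97960702 (plus) for ARRDC4. Capitals mark the matches to a ChREBP-type tandem E-box, a single E-box or a FOXO core.
PCK2: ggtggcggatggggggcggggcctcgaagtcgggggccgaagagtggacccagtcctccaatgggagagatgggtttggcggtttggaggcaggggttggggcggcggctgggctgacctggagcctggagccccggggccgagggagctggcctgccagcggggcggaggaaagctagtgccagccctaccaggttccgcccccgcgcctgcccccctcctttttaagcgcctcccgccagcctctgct
TXNIP: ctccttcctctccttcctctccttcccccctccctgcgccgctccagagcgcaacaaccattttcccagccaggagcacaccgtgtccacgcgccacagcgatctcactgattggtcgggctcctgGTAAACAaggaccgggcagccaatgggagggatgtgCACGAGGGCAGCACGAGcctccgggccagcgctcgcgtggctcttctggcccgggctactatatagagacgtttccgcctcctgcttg
MLXIPL: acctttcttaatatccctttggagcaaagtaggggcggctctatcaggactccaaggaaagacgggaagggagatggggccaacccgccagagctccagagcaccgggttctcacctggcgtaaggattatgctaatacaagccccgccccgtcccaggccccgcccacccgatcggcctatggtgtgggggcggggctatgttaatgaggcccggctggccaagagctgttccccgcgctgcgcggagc
ARRDC4: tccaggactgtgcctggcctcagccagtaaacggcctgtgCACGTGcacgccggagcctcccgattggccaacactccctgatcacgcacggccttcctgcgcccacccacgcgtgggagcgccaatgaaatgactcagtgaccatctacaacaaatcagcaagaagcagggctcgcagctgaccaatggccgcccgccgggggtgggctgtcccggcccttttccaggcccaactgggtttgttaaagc

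The motifs searched on both strands were the tandem E-box (CACGNG and CNCGNG spaced by 5 bases), the E-box CACGTG, the FOXO core TGTTTAC, the CARE core TGATGNAA bound by ATF4 with C/EBP proteins, the CRE TGACGTCA and the CCAAT box. The tandem E-box may overlap a single E-box. TXNIP held the tandem form as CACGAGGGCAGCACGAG at 88 to 72 bases before its start, a pattern present in 0.424% of 35116 promoters. It also held a FOXO core on the minus strand at 124 to 118 bases before the start, a motif found in 2.98% of promoters. ARRDC4 held a single E-box at 210 to 205 bases before its start, present in 6.34% of promoters. PCK2 held a CCAAT box, present in 32.0% of promoters, and none of the other motifs, while MLXIPL held none of the 6 in this window. The CARE core, present in 3.14% of promoters, occurred for G6PC alone among the 9 members with a promoter in the table. A match is a run of letters and not a site shown to be bound.

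Of the 17 probes, 13 from 9 genes were tested, since a probe had to exceed its background clearly on 2 or more of the 4 arrays of some group, and G6PC had no tested probe. A gene stood on its brightest tested probe. It was called where limma's p, adjusted after Benjamini and Hochberg, was under 0.05 and the log2 fold change reached 0.6 in either direction. At 42 µM against DMSO, 1 of the 9 genes was called, PCK2, which rose, beside 2.99% of all 24176 genes called by limma in either direction. At 28 µM against DMSO none of the 9 genes was called by limma, with a background of 0% of all genes. With p left unadjusted and the fold change limit kept, 2.7% of all genes passed at 28 µM, and PCK2 and TXNIP were among them. By probe, 4 of the 13 were called at 42 µM, all higher, beside 2.64% of all probes. Without 28 µM replicate 4, PCK2 rose and TXNIP fell at both doses, with 2.43% of all genes called at 28 µM and 4.1% at 42 µM. Both comparisons share the 4 DMSO arrays.

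**Figure D1:**
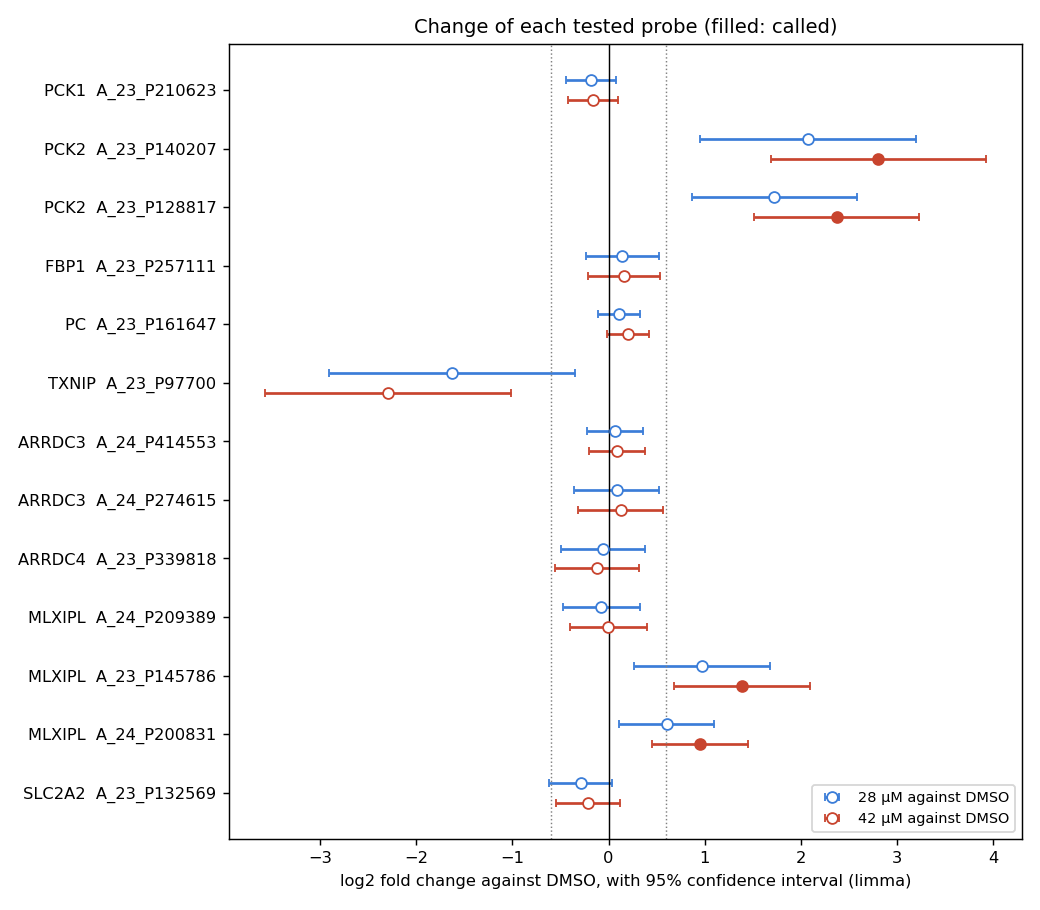
Log2 fold change of each of the 13 tested probes at 28 µM (blue) and 42 µM (red) against DMSO, on the horizontal axis, with its 95% confidence interval from limma; dotted lines mark the limits of 0.6 either way and filled points are called. The PCK2 probes and 2 MLXIPL probes are called at 42 µM, and TXNIP lies at −2.29 without passing.

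Pyruvate carboxylase, the entry step, was among the best measured genes and moved little. The level of its probe was 13.5 ± 0.10 (SD, n = 4) on DMSO, 13.6 ± 0.08 at 28 µM and 13.7 ± 0.09 at 42 µM on the log2 scale. The log2 fold change at 42 µM was 0.21 (95% interval −0.01 to 0.42, adjusted p = 0.362 from limma). With the arrays scaled to their 75th percentile in place of quantile normalization it was −0.03, where the median of all genes was −0.05, so that PC stayed 0.02 above that median. At 28 µM the log2 fold change was 0.11, and under that scaling −0.09, a difference of −0.06 from the median of all genes.

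PCK2 was the member with the largest difference. On its brightest probe, at chr14:24573196-24573255 in hg19, the log2 level was 10.44, 10.73, 10.21 and 10.25 on DMSO replicates 1 to 4. It was 13.38, 13.29, 13.01 and 10.26 at 28 µM, and 13.28, 13.55, 12.99 and 13.04 at 42 µM. All 42 µM arrays lay above all DMSO arrays, as did 3 of the 28 µM arrays, while 28 µM replicate 4 lay inside the DMSO range. PCK2 rose 6.99-fold at 42 µM (95% interval 3.21 to 15.2), or 2.81 on the log2 scale (SE 0.52, limma adjusted p = 0.0165). At 28 µM the log2 fold change was 2.08 (SE 0.52, adjusted p = 0.194), and 2.82 (SE 0.17, adjusted p = 1.5e-05) without 28 µM replicate 4. Leaving out the 1 array that lacks the rise narrows the spread, so the smaller p is no separate evidence.

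The other PCK2 probe, whose positions span a junction between chr14:24569401 and chr14:24571999, gave the same picture. Its log2 level was 7.88, 7.67, 7.93 and 7.82 on DMSO, 9.62, 10.31, 10.24 and 8.03 at 28 µM, and 9.63, 10.71, 10.23 and 10.23 at 42 µM. None of the 8 treated arrays overlapped the DMSO arrays here, although 28 µM replicate 4 was only just above them. At 42 µM this probe rose 5.18-fold (log2 fold change 2.37, SE 0.40, adjusted p = 0.0137 from limma). Groups that do not overlap occurred for 13% of all genes at 42 µM and for 5.73% at 28 µM. Within slides, the brightest PCK2 probe differed from DMSO by 3.03, 3.33 and 2.26 at 42 µM on slides 2, 4 and 5. At 28 µM these differences were 2.57 and 3.13 on slides 1 and 2, and 0.05 on slide 4, which holds 28 µM replicate 4.

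The PCK2 call at 42 µM depended on single arrays. It no longer passed without DMSO replicate 1, DMSO replicate 2 or 42 µM replicate 2, or when slides entered the model as a block. In that order, these fits called 221, 0, 0 and 1 of all genes, against 724 in the main fit. Over all alternatives the limma adjusted p of the brightest probe ran from 4.1e-06 to 0.0688. The other probe lost its call in the same settings apart from that without DMSO replicate 1, with an adjusted p of at most 0.0607. The log2 fold change of the brightest probe stayed between 2.67 and 2.91 in these and all other settings tried.

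The genes whose levels followed PCK2 most closely over the 12 arrays were ASNS (Pearson r 0.995), BRI3 (0.992) and GDF15 (0.990). ASNS makes asparagine and GDF15 encodes a secreted stress cytokine. Their log2 fold changes at 42 µM were 2.94 for ASNS, 1.03 for BRI3 and 2.02 for GDF15. The arrays are shared by all genes, so these coefficients are a description.

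PCK1, the cytosolic enzyme, was dim. Its tested probe, with positions from chr20:56136680 to chr20:56137174, was at 6.75, 6.50, 6.37 and 6.37 on DMSO, at 6.40, 6.35, 6.13 and 6.40 at 28 µM, and at 6.35, 6.49, 6.30 and 6.21 at 42 µM. The groups overlapped. The log2 fold change was −0.18 (95% interval −0.44 to 0.08) at 28 µM and −0.16 (−0.42 to 0.10) at 42 µM, neither past the test. The other PCK1 probe was above background on 1 array at 28 µM and on no array of the other groups, and it was not tested.

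**Figure D2:**
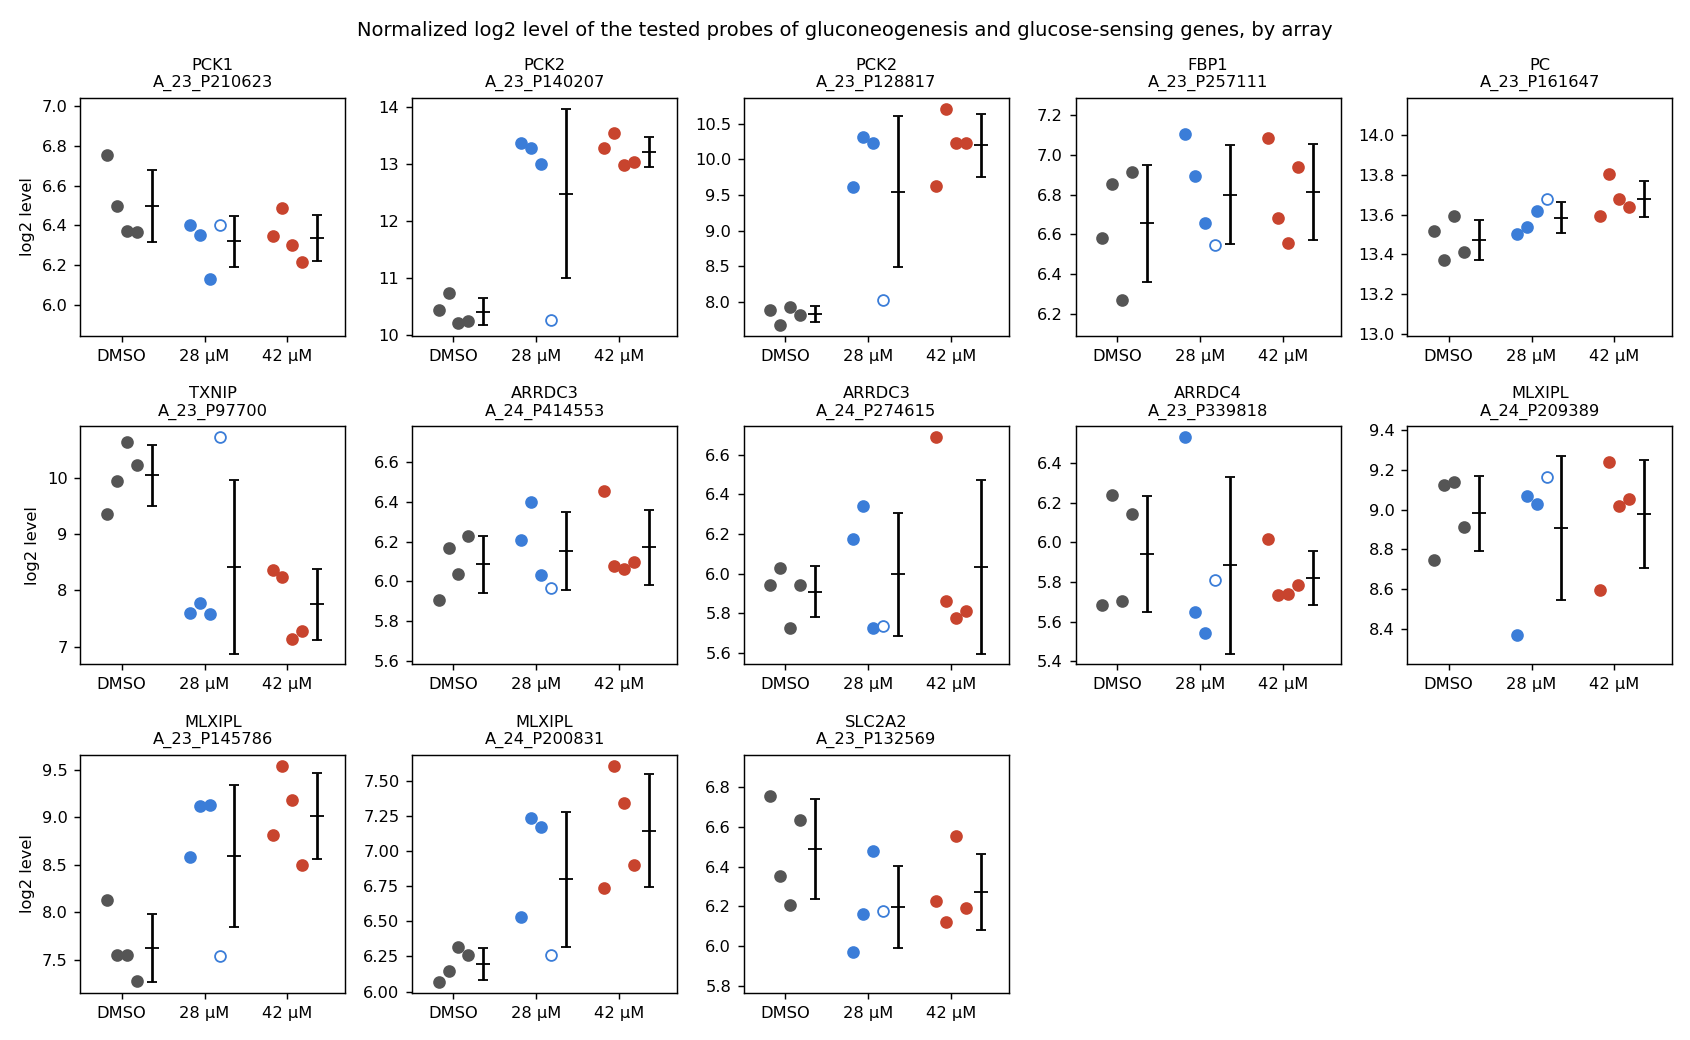
Normalized log2 level (vertical axis, scaled per panel) of the 13 tested probes on each array, by group, with the group mean and SD (n = 4) in black. The open circle is 28 µM replicate 4. It lies inside or just above the DMSO range for PCK2 and TXNIP and for MLXIPL probes A_23_P145786 and A_24_P200831.

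FBP1, whose product removes a phosphate from fructose 1,6-bisphosphate, was detected on all 12 arrays at a low level. The mean log2 level was 6.66 ± 0.29 (SD, n = 4) for DMSO, 6.80 ± 0.25 for 28 µM and 6.81 ± 0.24 for 42 µM. The groups overlapped, and the log2 fold change at 42 µM was 0.16 (95% interval −0.22 to 0.54, adjusted p = 0.767 from limma).

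Neither G6PC probe could be tested. The probe at chr17:41065189-41065248 was above background on 1 DMSO array, 1 array at 28 µM and 0 at 42 µM. The probe at chr17:41063762-41063820 was above background on 1 array in each group. RefSeq now names this gene G6PC1. Levels this near background set no direction for the enzyme that releases glucose.

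SLC2A2, the glucose transporter of the hepatocyte membrane, was above background on its tested probe on 4 DMSO, 4 28 µM and 3 42 µM arrays. The log2 levels were 6.75, 6.35, 6.21 and 6.64 on DMSO, 5.97, 6.16, 6.48 and 6.18 at 28 µM, and 6.23, 6.12, 6.55 and 6.19 at 42 µM. The treated arrays were mostly lower but overlapped DMSO. The log2 fold change was −0.29 (95% interval −0.62 to 0.04) at 28 µM and −0.21 (−0.55 to 0.12) at 42 µM, neither past the test. Its other probe was above background on no array.

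MLXIPL, the ChREBP gene, gave different answers on its 3 probes. The brightest probe, at chr7:73011656-73011715, was at 8.75, 9.13, 9.14 and 8.91 on DMSO, at 8.37, 9.07, 9.03 and 9.16 at 28 µM, and at 8.59, 9.24, 9.02 and 9.05 at 42 µM. The groups overlapped, and the log2 fold change at 42 µM was −0.00 (95% interval −0.41 to 0.40). By the rule that a gene stands on its brightest probe, MLXIPL was not called.

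Probe A_23_P145786 of MLXIPL, at chr7:73007914-73007973, was at 8.13, 7.54, 7.55 and 7.27 on DMSO. It was at 8.57, 9.12, 9.12 and 7.54 at 28 µM, and at 8.82, 9.54, 9.18 and 8.50 at 42 µM. All 42 µM arrays were above all DMSO arrays, and 28 µM replicate 4 was again inside the DMSO range. This probe rose 2.61-fold at 42 µM (log2 fold change 1.39, SE 0.33, adjusted p = 0.0394 from limma). At 28 µM the log2 fold change was 0.97 (adjusted p = 0.298), and 1.32 (adjusted p = 0.0188) without 28 µM replicate 4. The call at 42 µM was lost when any of the DMSO arrays was left out, or 42 µM replicate 1, 2 or 3. It was also lost with slides as a block (adjusted p = 0.0742) and with processed signals, both quantile normalized (0.0619) and scaled to the 75th percentile (0.0600). Over all alternatives the adjusted p reached 0.144 and the log2 fold change ran from 1.21 to 1.75.

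Probe A_24_P200831, whose positions span a junction from chr7:73008724 to chr7:73010016, was at 6.07, 6.14, 6.32 and 6.26 on DMSO. It was at 6.53, 7.24, 7.17 and 6.26 at 28 µM, and at 6.73, 7.61, 7.35 and 6.90 at 42 µM. The 42 µM arrays did not overlap DMSO, where the probe was above background on 2 of 4 arrays. It rose at 42 µM by 0.95 on the log2 scale (SE 0.23, limma adjusted p = 0.0428), a value that became 2.18 with Agilent's processed signal scaled to the 75th percentile. This call was lost when any of the DMSO arrays was left out, or 42 µM replicate 2, 3 or 4, with an adjusted p of up to 0.153 and log2 fold changes from 0.80 upward. It was also lost with slides as a block (adjusted p = 0.120) and with Edwards values scaled to the 75th percentile (0.0807). The log2 fold change at 28 µM was 0.60 (limma adjusted p = 0.356), and 0.78 (adjusted p = 0.0926) without 28 µM replicate 4. Neither passed.

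On the minus strand of MLXIPL the brightest probe lies upstream of the dimmer ones, and it was designed from another transcript record than the dimmer probes. The dimmer probes followed each other over the 12 arrays (Pearson r 0.910), while A_23_P145786 and the brightest probe did not (r −0.05). Within each array, A_23_P145786 minus the brightest probe averaged −1.36 ± 0.49 (SD, n = 4) on DMSO and 0.03 ± 0.39 at 42 µM. For A_24_P200831 the mean difference was −2.79 ± 0.15 on DMSO and −1.83 ± 0.24 at 42 µM. This comparison was chosen after the values were seen and is a description with no test. Within slides, A_23_P145786 was 1.54, 1.99 and 1.64 above DMSO at 42 µM on slides 2, 4 and 5.

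**Figure D3:**
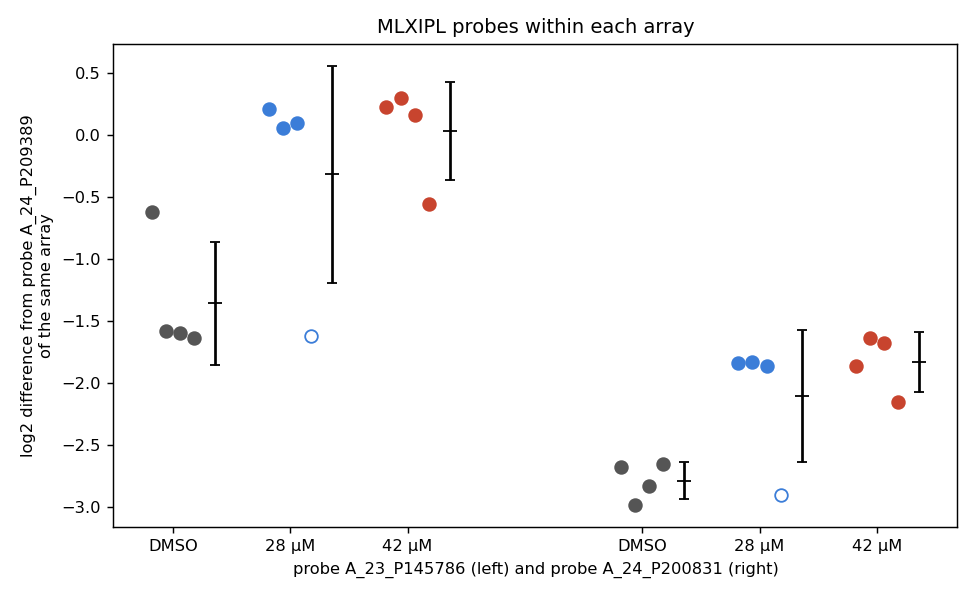
Log2 level of each dimmer MLXIPL probe minus that of the brightest probe on the same array (vertical axis), by group, with mean and SD (n = 4); the open circle is 28 µM replicate 4. All 42 µM arrays lie above all DMSO arrays for both probes, with means of 0.03 and −1.83 against −1.36 and −2.79.

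TXNIP, the arrestin-like brake on glucose uptake, was lower on every 42 µM array than on any DMSO array. On its single probe, at chr1:145442447-145442506, the log2 level was 9.36, 9.95, 10.64 and 10.23 on DMSO. It was 7.59, 7.77, 7.58 and 10.73 at 28 µM, and 8.36, 8.24, 7.14 and 7.28 at 42 µM. The other 28 µM arrays lay far below DMSO, while 28 µM replicate 4 was the highest of all 12 arrays. The log2 fold change at 42 µM was −2.29 (95% interval −3.57 to −1.01, adjusted p = 0.0560 from limma), and at 28 µM it was −1.63 (−2.91 to −0.35, adjusted p = 0.333), so neither passed with all arrays.

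Without 28 µM replicate 4, TXNIP fell at both doses, by 2.40 at 28 µM (SE 0.33, adjusted p = 0.0034) and by 2.29 at 42 µM (SE 0.30, adjusted p = 0.00114) on the log2 scale. The estimate at 42 µM does not use this array, and it changed only the shared estimate of the spread. TXNIP also passed at 42 µM with only the compared groups in the model (adjusted p = 0.00483) and with array weights (adjusted p = 0.00675). Over all alternatives the log2 fold change at 42 µM ran from −2.65 to −2.09 and its adjusted p from 0.00114 to 0.138. Within slides it was −1.87, −2.40 and −2.81 at 42 µM on slides 2, 4 and 5, and at 28 µM it was −1.78 and −2.64 on slides 1 and 2, and 0.08 on slide 4. The tandem E-box in the TXNIP promoter shown above is the type of element through which ChREBP and MondoA act in general. Whether it has a part in the lower TXNIP levels was not tested.

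The genes whose levels were most like those of TXNIP were CENPL (Pearson r 0.972 over 12 arrays), which encodes a kinetochore protein, and PSMD12 (0.940), which encodes a subunit of the proteasome. The third was an unnamed probe, A_23_P251002 (0.937). Their log2 fold changes at 42 µM were −0.48, −0.56 and −1.37, all smaller in size than that of TXNIP. CENPL did not pass (adjusted p = 0.104 from limma), and PSMD12 (adjusted p = 0.0451) stayed under the fold change limit. The unnamed probe passed (adjusted p = 0.0195). As for PCK2, the coefficients are a description.

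ARRDC4 and ARRDC3, the other arrestins, were too dim to follow in the same way. The ARRDC4 probe was above background on 2 DMSO arrays, 1 array at 28 µM and 0 at 42 µM. Its log2 level lay between 5.68 and 6.24 on DMSO arrays, between 5.54 and 6.53 under 28 µM and between 5.74 and 6.02 under 42 µM. The groups overlapped, and the log2 fold change at 42 µM was −0.12 (95% interval −0.56 to 0.32). The brighter ARRDC3 probe, at chr5:90678637-90678696, was above background on 1, 3 and 3 arrays of DMSO, 28 µM and 42 µM, with levels of 5.91 to 6.23, 5.97 to 6.40 and 6.06 to 6.45. Its log2 fold change at 42 µM was 0.09 (95% interval −0.20 to 0.37). Over all alternatives this value ran from −0.01 to 0.68, beyond that interval, with a limma adjusted p of at least 0.646. The dimmer ARRDC3 probe was above background on no DMSO array, on 2 arrays at 28 µM and on 1 at 42 µM. It was thus tested only through the 28 µM group. Its log2 fold change at 42 µM was 0.13 (95% interval −0.32 to 0.57) and turned to −0.09 without 42 µM replicate 1, the highest array of its group on both ARRDC3 probes.

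**Figure D4:**
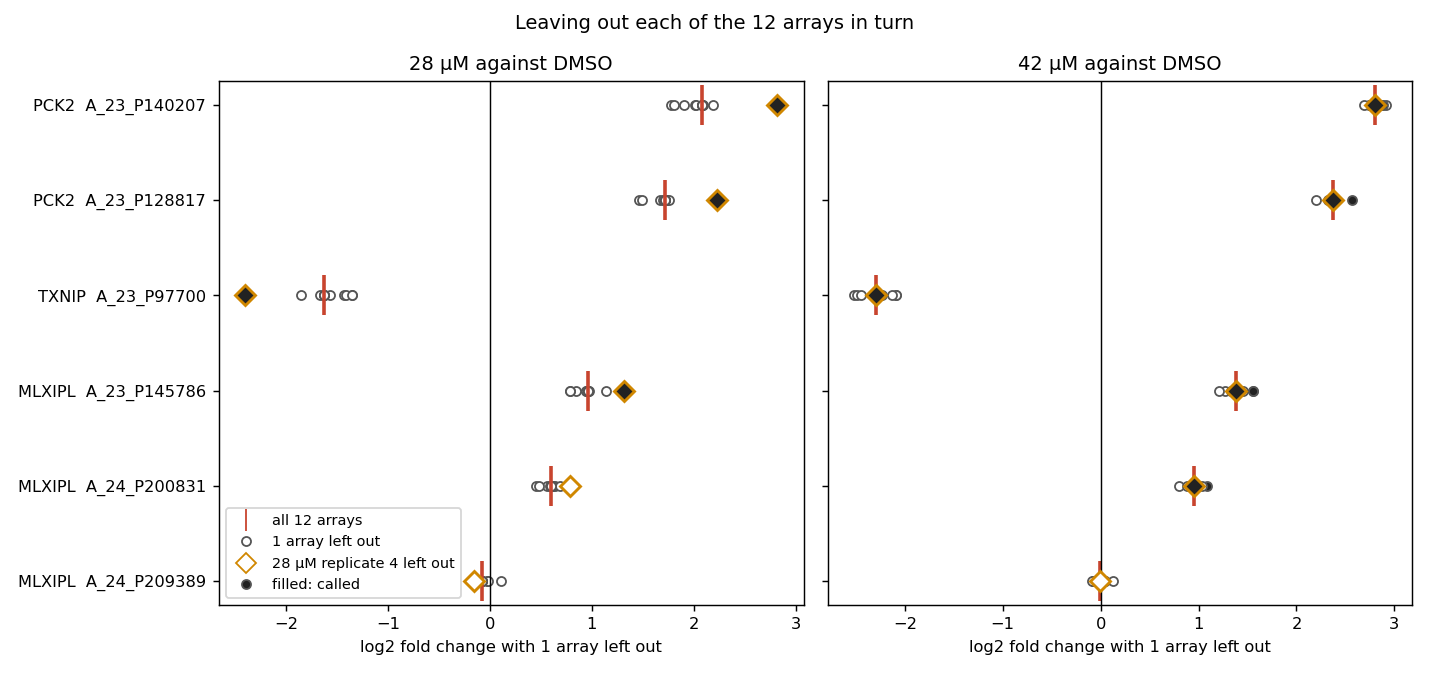
Log2 fold change (horizontal axis) of the PCK2, TXNIP and MLXIPL probes against DMSO with each of the 12 arrays left out in turn; the red bar is the value with all arrays, the diamond that without 28 µM replicate 4, and filled symbols are called. At 28 µM leaving out that array moves PCK2 from 2.08 to 2.82 and TXNIP from −1.63 to −2.40, and at 42 µM it leaves both values as they were.

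The doses were also compared directly. At 42 µM against 28 µM none of the 9 genes was called by limma, as was none of all genes (0%), and at an unadjusted p below 0.05 with the fold change limit 0.302% of all genes passed and no member did. The log2 difference was 0.73 (95% interval −0.39 to 1.85) for PCK2 and −0.66 (−1.94 to 0.62) for TXNIP. Without 28 µM replicate 4 these differences were −0.01 (SE 0.17) and 0.11 (SE 0.33). With all arrays both intervals include 0 and reach beyond the fold change limit.

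Other genes of glucose metabolism were described through lists around the members. With 28 µM replicate 4 included, 0 genes of any list were called by limma at 28 µM, so the counts and values that follow are those at 42 µM unless stated, and the median log2 fold change of all genes was −0.02. Among 25 tested genes of other gluconeogenic steps and carriers, 1 rose and 2 fell, with a median of −0.18, beside 2.99% of all genes called in either direction. GPT2, the mitochondrial alanine aminotransferase, rose (log2 fold change 0.99, adjusted p = 0.0129). LDHA, a lactate dehydrogenase subunit, fell by 1.28 (adjusted p = 0.0339) and PGAM1, phosphoglycerate mutase, fell by 1.03 (adjusted p = 0.0184), both on the log2 scale. Without 28 µM replicate 4 the counts were 2 higher and 4 lower at 42 µM, and 2 higher and 3 lower at 28 µM, where 4.1% and 2.43% of all genes were called.

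Of 16 transcription factors and coactivators of gluconeogenesis, 2 rose and 0 fell, with a median of 0.23 and 2.99% of all genes called. CEBPB, a C/EBP factor, rose by 1.45 on the log2 scale (SE 0.32, adjusted p = 0.0303), and NR0B2, the repressor SHP, rose by 1.31 (SE 0.18, adjusted p = 0.0112). PPARGC1A, the coactivator PGC-1α, had a log2 fold change of 0.84 that did not pass (adjusted p = 0.107) and passed without 28 µM replicate 4 (adjusted p = 0.0348). Without that array 3 of the list rose at 42 µM (4.1% of all genes called) and 2 at 28 µM (2.43%).

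Of 18 partners and targets of ChREBP and MondoA outside the members, 3 rose and 0 fell, with a median of 0.08 and 2.99% of all genes called. They were BHLHE40, a transcriptional repressor (log2 fold change 1.83, adjusted p = 0.0165), SCD, which desaturates fatty acids (1.59, adjusted p = 0.0311), and ACLY, which makes cytosolic acetyl-CoA (0.84, adjusted p = 0.0316). SCD and ACLY also belong to lipid synthesis, which other factors drive as well. Without 28 µM replicate 4 there were 4 higher and 0 lower at each dose, beside 4.1% of all genes called at 42 µM and 2.43% at 28 µM.

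Of the 15 genes of glucose transport and phosphorylation, 11 could be tested, and 1 rose and 1 fell, beside the same 2.99% of all genes. SLC2A8, a glucose transporter of internal membranes, rose with a log2 fold change of 0.63 (adjusted p = 0.0192). SLC2A1, the widespread transporter GLUT1, fell by 0.82 on the log2 scale (adjusted p = 0.0387). No gene was called by limma among the 11 switches of fructose 2,6-bisphosphate and pyruvate dehydrogenase, the 11 tested other arrestins, thioredoxins and ligases, or the 15 genes of glycogen metabolism, with medians of −0.11, 0.03 and −0.16. Without 28 µM replicate 4, 1 of the switch genes fell, PFKFB3 (log2 fold change −0.96, adjusted p = 0.0314).

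**Figure D5:**
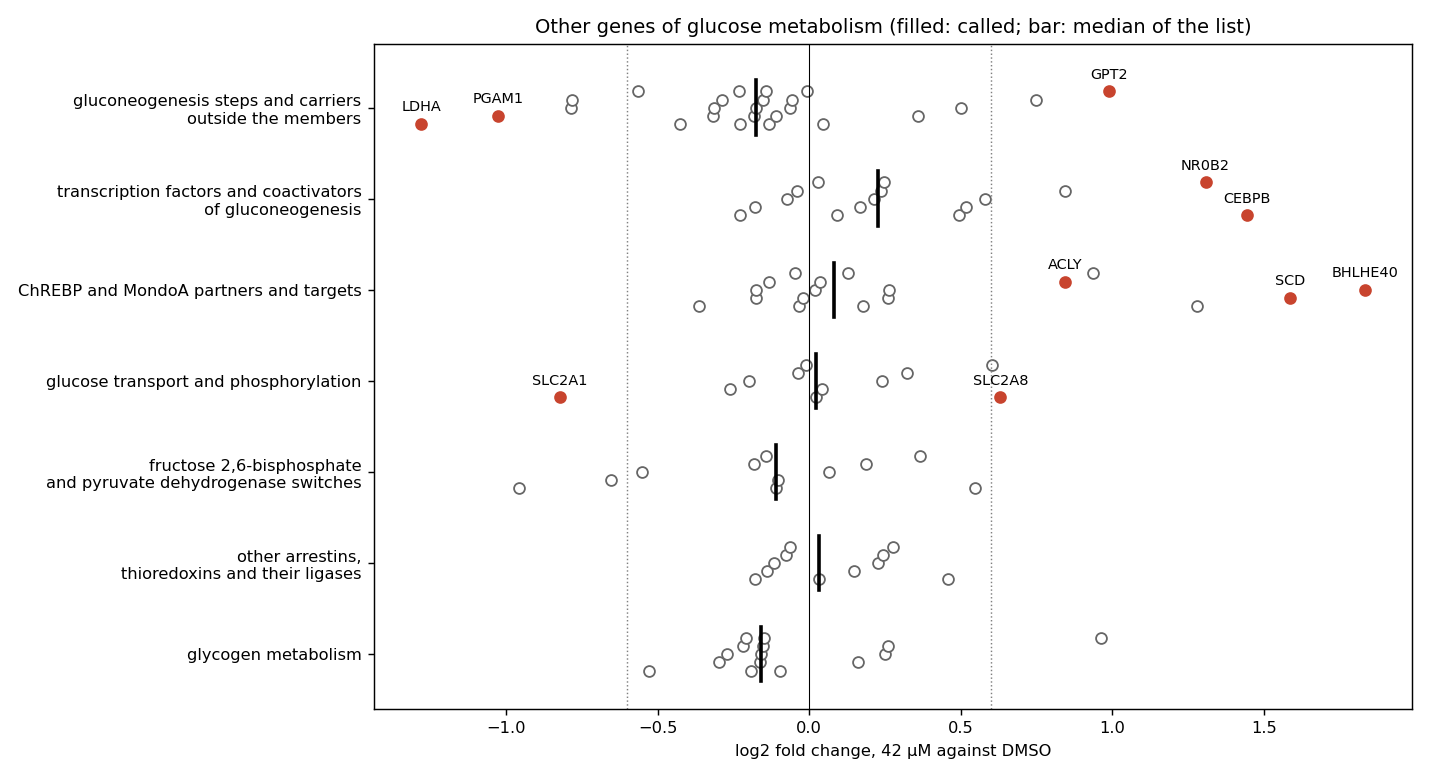
Log2 fold change at 42 µM against DMSO (horizontal axis) of the brightest tested probe of each gene in 7 lists of glucose metabolism, with called genes filled and named and the median of each list as a bar. The called genes run from −1.28 for LDHA to 1.83 for BHLHE40, and the list medians lie between −0.18 and 0.23.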

How the data were processed

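RNA of 12 HuH-7 cultures was hybridized to 1-colour Agilent arrays. The authors deposited the scanner output, with the mean intensity and the median background intensity of every spot, and a table of log2 values made by Edwards background correction followed by quantile normalization. The intensities were processed again in the same way with limma 3.58.1 in R 4.3.3. Control spots and outlier-flagged spots were left out, and values were averaged over the spots of each probe. Probes that failed detection on 3 or more of the 4 arrays in each condition were removed, a reading of the majority that the methods name, which left 33476 of 41000 probes. The values correlated with the authors' log2 values at r = 0.999 or more on each array. A single limma model (lmFit, eBayes) held the 12 arrays and 3 groups, with two-sided tests and Benjamini-Hochberg adjustment over all probes tested. The limits were an adjusted p of 0.05 and a log2 fold change of 0.6. The procedure was tested on simulated data.

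The members, the lists and the tests were chosen with earlier results of these data known. Every probe of a member is described. At most 3 called genes per list and direction, and the 3 genes most like PCK2 and TXNIP by Pearson r, are named, apart from PPARGC1A and PFKFB3, named after their values were seen. Probe positions are hg19 as the scanner files give them, without an annotation of that build, so exons are not named. The number of arrays limits the precision. Each slide was scanned once, so slide and scan cannot be told apart. Replicate numbers are not described as marking a shared batch. Plots were made with Python 3.11.15 and matplotlib 3.10.9. The pathway analyses and other assays of the study were not analysed here.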

Additional observations from a re-analysis of the deposited data

Results flagged for a closer look

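Among 39 combinations of a tested probe and a group, 5 had 1 array farther from the others than a Dixon test at the 95% level allows, and chance gives about 1 in 20. They include 28 µM replicate 4 for PCK2 probe A_23_P140207 (log2 level 10.26), inside the DMSO range, and for TXNIP (10.73), just above it. The others are 42 µM replicate 1 for ARRDC3 probes A_24_P414553 (6.454) and A_24_P274615 (6.69), both near background, and 28 µM replicate 1 for the brightest MLXIPL probe, A_24_P209389 (8.369).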

How the results depend on the processing

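At 42 µM against DMSO the number of called genes among the 9 was 1 (PCK2). It was 2 (PCK2 and TXNIP) with Edwards values scaled to the 75th percentile, a strict filter, array weights, only the groups compared, or slides as a random effect, and 2 (MLXIPL and PCK2) when any tested probe could call a gene. It was 0 with the slide as a block, where 1 of all genes was called against 724 without it. Leaving out each array in turn gave between 0 and 2 called genes at either dose, the 2 without 28 µM replicate 4, and the 0 at 42 µM without DMSO replicate 1, DMSO replicate 2 or 42 µM replicate 2. Over all genes these fits called 0 to 991 at 42 µM, processed signals with quantile normalization 361, a log2 limit of 1 gave 311 and the replicate block 1108. At 42 µM against 28 µM the number was 0 throughout. Fits with fewer arrays or a block also have fewer residual degrees of freedom. Probe values under 335 alternatives a comparison kept their direction and side of the threshold in 329, 301 and 332 cases at 28 µM, at 42 µM and between the doses, where a turned sign counts once it moves an uncalled value by more than the replicate SD.

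With arrays scaled to the 75th percentile the sign of PC turned, with processed signals −0.0833 at 28 µM and −0.0779 at 42 µM, with Edwards values −0.0907 and −0.0266. Relative to the median of all genes these values were −0.0576, −0.0238, −0.0578 and 0.0215, so that the last did not turn against other genes. With processed signals so scaled, the differences between the doses turned to −0.163 for PCK1, −0.333 for ARRDC3 probe A_24_P274615 and −0.191 for SLC2A2. No scaling moved the median of all genes by over 0.1. Causes were not tested.

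The replicate number as a block gave 1 called gene at 42 µM, PCK2, and 0 at 28 µM and between the doses. With the group mean of each probe subtracted, same-numbered arrays had correlations of −0.46 to 0.62, over 0.1 in 7 of 12 pairs. The highest was between replicates 1 of 28 µM and 42 µM, which share a slide. Differently numbered arrays of different groups had correlations of −0.59 to 0.57. Whether arrays of the same number share a batch was not tested.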
